A study of Mus musculus with 10 samples.

Results

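The E2F transcription factors and the pocket proteins that bind them were followed in sorted splenic B cells of mice on 10 Affymetrix whole-genome mouse arrays. The 10 genes are E2f1 to E2f8, Rb1 and Rbl1, taken by symbol out of the 18194 genes with a probe set of their own, and all 10 were above the limit for testing. Among the probe sets assigned to its symbol alone, the one that was brightest on average represents a gene. These genes have 22 such probe sets in all, and the agreement of the remaining ones is described after the groups.

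E2F proteins bind DNA at the promoters of genes for DNA replication and cell division. E2F1, E2F2 and E2F3 are known mainly as activators and are held in check by the retinoblastoma protein pRB, the product of Rb1. E2F4 and E2F5 act mostly as repressors together with p107, the product of Rbl1, and with p130, the product of Rbl2. E2F6 represses without a pocket protein, in complexes with Polycomb group proteins, and E2F7 and E2F8 are atypical repressors that bind DNA without a DP partner. Cyclin-dependent kinases phosphorylate the pocket proteins and so release the E2F proteins, which drives cells into DNA synthesis. Naive B cells are mostly resting, whereas germinal centre (GC) B cells are among the most rapidly dividing cells of the body.

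The samples formed 3 groups. GC B1-8 cells (n = 3) came from VH186.2-Tg JH KO mice and GC V23 cells (n = 3) from V23-Tg JH KO mice, both on a Balb/c background, with a transgenic immunoglobulin heavy chain and a targeted deletion of their own JH locus. These mice received 50 µg of NP-CGG, a hapten on a carrier protein, in alum by the intraperitoneal route, and λ+ PNA+ B220+ spleen cells were sorted on day 14. Naive B cells (n = 4) came from unimmunized Balb/c mice. GC and naive cells thus differed in immunization and in the transgene and JH deletion, which cannot be told apart. The stain used to sort the naive cells was not given, and any difference in the sort could not be told apart from these either. Ages were not given, and whether replicates came from different animals is not stated. If they did not, p-values reflect technical spread among these samples. In bulk samples of this kind, fewer cells of a type and less RNA per cell cannot be told apart either.

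Some arrays stood apart or carried signal of other cells. Germinal centre markers averaged log2 11.95 to 12.06 in GC B1-8, 11.91 to 12.03 in GC V23, and 8.08, 9.80, 8.24 and 9.01 in naive replicates 1 to 4, so that naive replicates 2 and 4 lay closest to the GC arrays. Neutrophil markers were higher in GC samples for 9 of 9 tested genes of a list of 10, with a summed log2 level of 15.87 to 15.92 in GC B1-8, 15.21 to 15.79 in GC V23 and 11.41 to 13.77 in naive cells. None of those 9 markers was below log2 4 on all GC arrays, and their part in the results below was not tested. The difference between the 3′ and 5′ probe sets of Actb, a measure of RNA integrity, was 0.98 ± 0.20 in GC B1-8 and 0.78 ± 0.08 in GC V23, against 1.46 ± 0.17 in naive samples (log2, SD). B cell markers were high in every group, between log2 12.61 and 13.16 in GC samples and between 13.32 and 13.48 in naive samples. Of 5 tested, 2 were lower in GC samples and 0 higher. Markers of some other cells were lower in GC samples, 3 of 5 for NK cells, 3 of 5 for platelets and 2 of 4 for erythroid cells, with 0 higher. For macrophages 1 of 6 was higher and 2 lower, for T cells 1 of 6 was lower, and for plasma cells 2 of 6 were higher and 1 lower. These calls are for the average of the GC groups against naive, where 20.5% of all tested genes were called higher and 21.0% lower. In lists this small, counts near those shares are no result about a cell type. Naive replicate 4 had the highest mean of the NK, erythroid, macrophage and T cell lists. Their part was not tested.

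Several genes of the family are known to be targets of E2F proteins themselves, so promoters are shown for 4 of them that hold letters which E2F proteins or MuvB complexes are known to bind. The RefSeq table of build GRCm38.p6 matched E2f1, E2f2, E2f3, E2f6, E2f7, E2f8 and Rbl1, with 9 promoters in all. E2F motifs were searched as TTTGGCGC, TTTGCCGC, TTTCGCGC and TTTCCCGC, and the cell cycle homology region (CHR) as TTTGAA, on both strands. No motif match overlapped another. In the 250 bases before the start, an E2F motif occurred in 3 of the 9 promoters, those of E2f3, E2f7 and Rbl1, against 1.86% of all 32851 promoters. A CHR occurred in 3 of the 9, those of one start each of E2f2 and E2f3 and that of E2f8, against 16.0% of all promoters. A match is a description of letters and not a site. Capitals mark the matches in the stretches below, read 5′ to 3′ along the gene's strand, where motifs on the opposite strand appear as their reverse complement. The stretches are chr2:157204535-157204654 for Rbl1, chr13:29986064-29986183 for E2f3 and chr7:48881597-48881716 for E2f8, all on the minus strand and ending at the base before the start, and chr10:110745189-110745308 on the plus strand for E2f7, which begins 250 bases before the start.
Rbl1: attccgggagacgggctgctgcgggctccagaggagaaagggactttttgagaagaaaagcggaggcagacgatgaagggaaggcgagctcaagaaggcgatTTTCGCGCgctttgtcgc
E2f3: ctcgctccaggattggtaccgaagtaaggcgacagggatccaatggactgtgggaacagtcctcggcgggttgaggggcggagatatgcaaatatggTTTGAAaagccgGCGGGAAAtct
E2f7: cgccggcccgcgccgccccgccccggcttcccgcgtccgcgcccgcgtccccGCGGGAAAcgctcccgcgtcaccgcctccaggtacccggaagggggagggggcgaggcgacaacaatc
E2f8: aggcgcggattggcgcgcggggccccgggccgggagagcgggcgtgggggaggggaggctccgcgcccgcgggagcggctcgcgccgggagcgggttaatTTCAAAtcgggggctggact

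Compared with naive B cells, 6 of the 10 genes rose in both GC groups and 1 fell. The genes that rose were E2f1, E2f2, E2f3, E2f7, E2f8 and Rbl1, Rb1 fell, and E2f4, E2f5 and E2f6 did not pass the test. In GC B1-8 against naive the 6 and 1 compare with 16.4% of all 17204 tested genes called higher and 17.3% called lower, by limma at an adjusted p under 0.05. In GC V23 against naive the background was 18.2% and 19.7%, and for the average of the GC groups it was 20.5% and 21.0%. The 6 of 10 that rose lie above these shares. A count of 1 in 10 that fell is too near them to be a result about the family. The genes were chosen with earlier results of these data known, so neither count was tested against its share. The median log2 fold change of the 10 genes was 0.90 in GC B1-8 and 0.96 in GC V23, beside 0.05 and 0.06 for all genes tested. Both comparisons use the same naive arrays, so the second is no independent repeat of the first. With median centring of the arrays, GC V23 against naive had 3823 genes higher and 2535 lower, beside 3127 and 3386 as deposited, and the family kept its 6 and 1. GC and naive arrays did not overlap for 7 of the 10 genes, beside 35.5% of all genes.

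**Figure D1:**
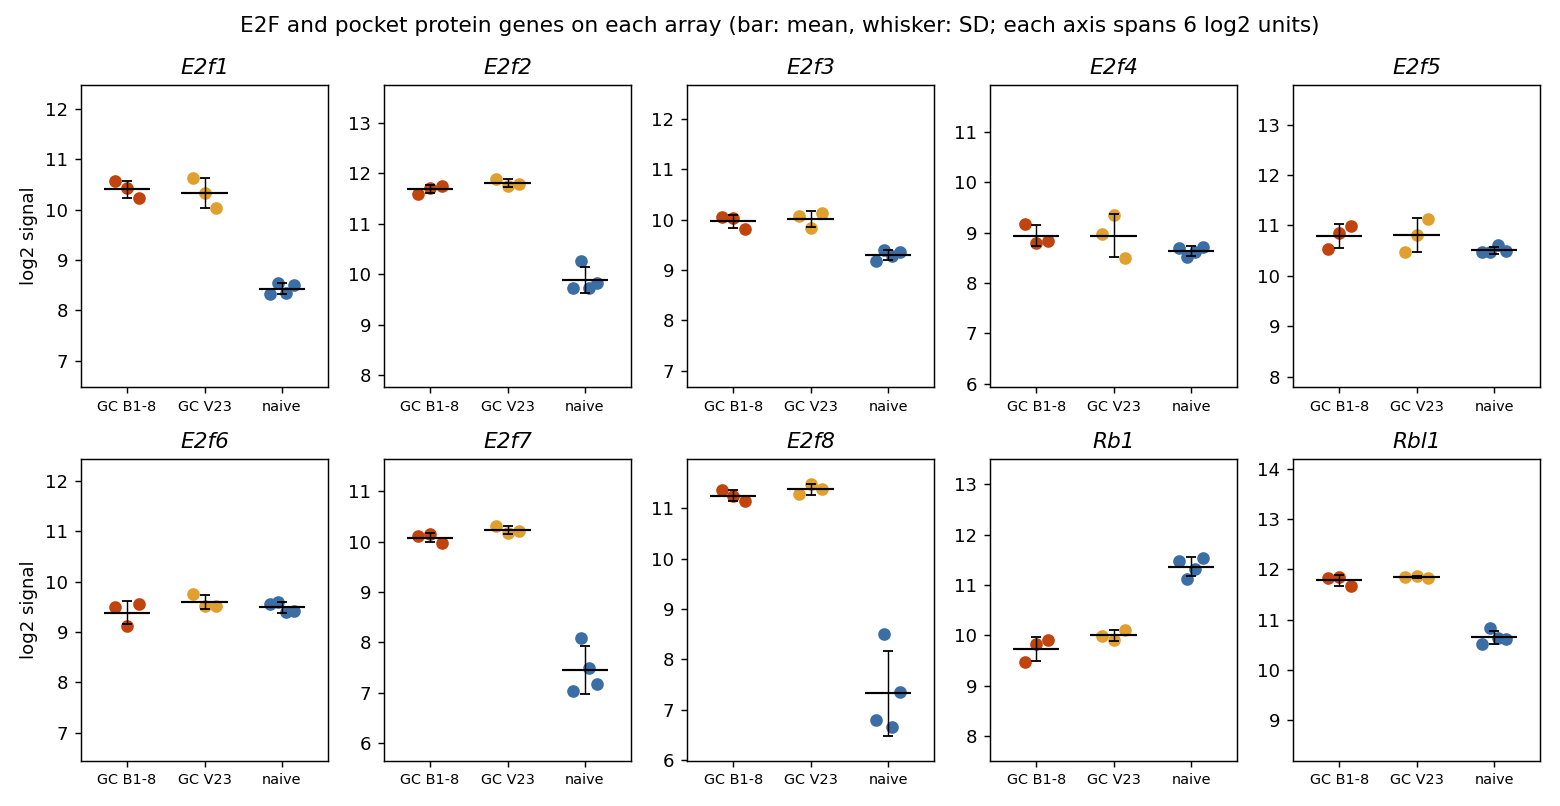
Log2 signal of the 10 E2F and pocket protein genes, 1 panel per gene, with 1 point per array in GC B1-8 (n = 3), GC V23 (n = 3) and naive (n = 4), a bar at the group mean and whiskers of 1 SD, and vertical axes of equal span. The GC points of E2f8 lie between 11.15 and 11.49, against 6.66 to 8.51 in naive, and Rb1 is the only gene whose GC points all lie below the naive points.

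The atypical repressors showed the largest differences. E2f8 had log2 signals of 11.37, 11.24 and 11.15 in GC B1-8, of 11.27, 11.49 and 11.38 in GC V23, and of 6.79, 8.51, 6.66 and 7.35 in naive replicates 1 to 4. The GC arrays lay close together and the naive arrays were spread over nearly 2 log2 units, with replicate 2 highest and no overlap between the groups. E2f8 was 3.99 ± 0.33 higher on the log2 scale over both GC groups (15.9-fold, limma adjusted p = 2.79e-05). Without naive replicates 2 and 4, its 2 highest naive arrays, the difference was 4.59 ± 0.11, an SE without their spread.
E2f7, which is known to pair with E2f8, had 10.11, 10.16 and 9.98 in GC B1-8, 10.32, 10.17 and 10.21 in GC V23, and 7.03, 8.09, 7.49 and 7.18 in naive cells. Again naive replicate 2 was highest and the groups were apart. The log2 fold change was 2.71 ± 0.19 (6.55-fold, adjusted p = 1.3e-05).
On the brightest probe set of each gene, E2f8 changed by more than E2f7. With the mean of its 2 probe sets, of which the second is near background, E2f8 rose by 2.23 over both GC groups. That is less than the 2.71 of E2f7, which has 1 probe set, so the order of the 2 genes depends on the probe set. The within-array difference of E2f8 minus E2f7 was 1.16 ± 0.13 in GC (SD, n = 6) and −0.12 ± 0.55 in naive cells (n = 4), which is 1.28 more in GC (exact permutation test, two-sided p = 0.0095, adjusted 0.011). No smaller p can come from 210 splits, and the 6 pairs of genes compared in this way were chosen after their values were seen. These differences between probe sets are used only for how they differ between groups, since the level of one probe set cannot be set against that of another.

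Among the activators, E2f1 and E2f2 changed by a similar amount and E2f3 by less. E2f1 had log2 signals of 10.56, 10.42 and 10.23 in GC B1-8, of 10.63, 10.32 and 10.03 in GC V23, and of 8.33, 8.54, 8.34 and 8.51 in naive cells, a clear gap of over 1 log2 unit between the lowest GC and the highest naive array. It rose by 1.93 ± 0.13 (3.82-fold, limma adjusted p = 9.37e-06).
E2f2 had 11.60, 11.71 and 11.75 in GC B1-8, 11.89, 11.74 and 11.79 in GC V23, and 9.72, 10.27, 9.73 and 9.82 in naive cells. All GC arrays were above all naive arrays, and naive replicate 2 was the highest of the naive arrays. The rise was 1.86 ± 0.12 (3.63-fold, adjusted p = 8.19e-06).
E2f3, which encodes a long and a short isoform that these probe sets were not used to tell apart, had 10.06, 10.03 and 9.82 in GC B1-8, 10.07, 9.83 and 10.14 in GC V23, and 9.18, 9.40, 9.28 and 9.36 in naive cells. The groups did not overlap, but the gap was narrow. The rise of 0.69 ± 0.09 was 1.61-fold (adjusted p = 0.000442), which does not pass a 2-fold minimum.
The difference between E2f1 and E2f2 shifted by 0.07 between GC and naive arrays (exact permutation p = 0.68, adjusted 0.68). E2f1 minus E2f3 shifted by 1.25 and E2f2 minus E2f3 by 1.17, each with an exact p of 0.0095 (adjusted 0.011 over the 6 pairs).

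The repressors E2f4 and E2f5 and the Polycomb partner E2f6 did not pass the test on their brightest probe sets in any comparison with naive cells. E2f4, the E2F that is most abundant in many resting cells, had 9.18, 8.80 and 8.83 in GC B1-8, 8.97, 9.34 and 8.50 in GC V23, and 8.70, 8.50, 8.61 and 8.71 in naive cells. GC V23 replicate 3 was the lowest of all 10 arrays and GC V23 replicate 2 the highest, so the groups overlapped. The difference was 0.31 ± 0.16 (95% interval −0.06 to 0.68, limma adjusted p = 0.172). It passed with quantile normalization (0.57, adjusted p = 0.015) and without GC V23 replicate 3 (0.42, adjusted p = 0.0304).
E2f5 had 10.52, 10.84 and 11.00 in GC B1-8, 10.47, 10.82 and 11.13 in GC V23, and 10.47, 10.46, 10.61 and 10.49 in naive cells. In each GC group 1 array lay within the naive range and the other 2 above it. The difference was 0.29 ± 0.14 (95% interval −0.04 to 0.62, adjusted p = 0.147), and 0.37 without GC V23 replicate 1 (adjusted p = 0.0437). Averaged over its 3 probe sets, E2f5 was 0.97 higher and passed (adjusted p = 0.00958).
E2f6 had 9.49, 9.12 and 9.55 in GC B1-8, 9.76, 9.51 and 9.51 in GC V23, and 9.55, 9.60, 9.39 and 9.41 in naive cells. The 3 groups were interleaved, with the lowest array in GC B1-8 and the highest in GC V23. The difference was 0.00 ± 0.11 (95% interval −0.25 to 0.26, adjusted p = 0.99), an interval that bounds the change on this probe set. The average of both E2f6 probe sets was 0.60 higher and passed (adjusted p = 0.0095).

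The pocket proteins went in opposite directions. Rb1 had log2 signals of 9.47, 9.83 and 9.91 in GC B1-8, of 9.99, 9.90 and 10.11 in GC V23, and of 11.48, 11.13, 11.32 and 11.54 in naive cells. Every GC array was at least 1 log2 unit below the lowest naive array, which was replicate 2. Rb1 fell by 1.50 ± 0.12 on the log2 scale to 0.354 of the naive level (limma adjusted p = 2.43e-05).
Rbl1 had 11.83, 11.85 and 11.66 in GC B1-8, 11.85, 11.87 and 11.82 in GC V23, and 10.51, 10.83, 10.63 and 10.62 in naive cells. Its naive maximum was again replicate 2, and its GC V23 arrays had the smallest spread of the 10 genes (SD 0.02). It rose by 1.17 ± 0.08 (2.24-fold, adjusted p = 1.31e-05).
The gap of Rbl1 minus Rb1 was 1.94 ± 0.24 in GC (SD, n = 6) and −0.72 ± 0.31 in naive cells (n = 4). It shifted by 2.66 (exact permutation p = 0.0095, adjusted 0.011). All GC arrays lay above all naive arrays for Rbl1 and below them for Rb1, so this smallest p was fixed. It adds nothing to the separate changes of Rb1 and Rbl1. Rbl2, the remaining pocket protein gene, known for its role in resting cells, was 10.35 ± 0.12 in GC B1-8 and 10.26 ± 0.14 in GC V23, against 10.85 ± 0.09 in naive cells. It fell by 0.54 ± 0.09 (adjusted p = 0.0011), less than Rb1 by 0.95 (exact p = 0.0095, adjusted 0.011).

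**Figure D2:**
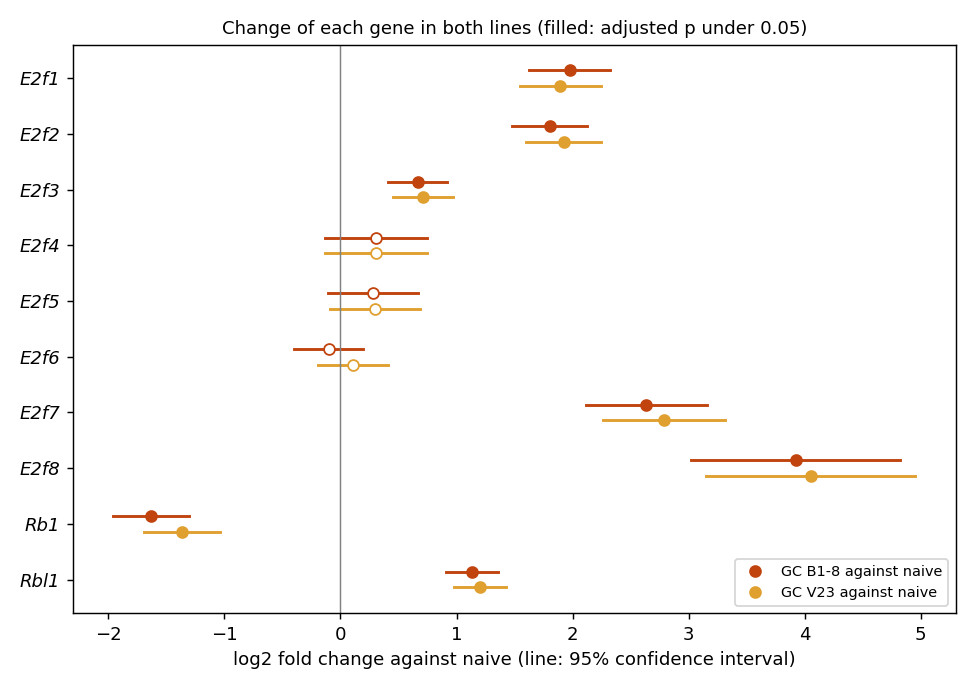
Log2 fold change of each of the 10 genes in GC B1-8 against naive and in GC V23 against naive, with 95% confidence intervals from limma, a line at 0, and filled points at an adjusted p under 0.05. The values run from −1.63 for Rb1 in GC B1-8 to 4.05 for E2f8 in GC V23, and the intervals of both groups overlap for every gene.

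The 6 genes that rose were each highest, within the naive group, in replicate 2, and Rb1 was lowest there. That array also had the highest naive level of the G1/S target list, 10.22 against 9.59, 9.61 and 9.81 in the other naive arrays, and of the G2/M target list, 9.25 against 8.01, 8.14 and 8.64. Germinal centre markers were highest in the same array, as given above. The part of these values in the spread of the naive group was not tested. Leaving out naive replicates 2 and 4 left naive replicates 1 and 3 alone, with counts of 6 genes higher and 1 lower. The log2 fold changes were then 2.03 for E2f1, 2.02 for E2f2, 0.76 for E2f3, 2.90 for E2f7, 1.24 for Rbl1 and −1.53 for Rb1. Within the naive group, replicate 2 lay nearest to the GC arrays for each of these genes, so leaving it out could only widen their changes. The kept counts are therefore no independent support.

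The 2 GC groups were compared to ask whether the family differed between the heavy chain transgenes. In GC B1-8 against GC V23, 0 of the 10 genes passed limma's test in either direction, and 0 had an unadjusted p under 0.05. Over all genes 0.0233% were called, and 1328 of 17204 had an unadjusted p under 0.05. Neither count of 0 in 10 is a result about the family. The median log2 fold change of the 10 genes was −0.09, beside 0.00 for all genes. The largest difference was that of Rb1, at −0.27 ± 0.15 (95% interval −0.62 to 0.09, adjusted p = 0.739). E2f6 differed by −0.21 ± 0.14 (95% interval −0.53 to 0.11, adjusted p = 0.778) and E2f1 by 0.08 ± 0.16 (adjusted p = 0.945). For E2f8 the difference was −0.13 ± 0.42, with an interval of −1.09 to 0.84 that also takes in the spread of the naive arrays, since the 3 groups share 1 variance.

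Other probe sets of the same genes gave the same direction for the activators. For E2f1 a second probe set (1417878_at) rose by 1.50 ± 0.28 (limma adjusted p = 0.0029 over all single-symbol probe sets), and a dim one (1447840_x_at) differed by 1.52 ± 0.55 (adjusted p = 0.0578). The second E2f2 probe set (1455790_at) rose by 1.76 ± 0.12 and that of E2f3 (1427462_at) by 0.59 ± 0.14, close to the values above. Of the 4 Rbl1 probe sets, 1425166_at rose by 1.50 ± 0.11, whereas 1432604_at and 1454293_at differed by −0.33 ± 0.19 and −0.25 ± 0.79 and did not pass. Averaged over all its probe sets, Rbl1 was 0.52 higher (adjusted p = 0.108) and no longer passed. The second Rb1 probe set (1444400_at), with a mean of only log2 3.47, fell by 2.13 ± 0.64 (adjusted p = 0.0287).

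For the repressors the probe sets of a gene disagreed on the call. The second E2f6 probe set (1437914_at) lay between 6.33 and 6.96 on all GC arrays and between 4.66 and 5.77 on the naive arrays. It rose by 1.19 ± 0.23 (limma adjusted p = 0.00311), whereas the brighter one (1448835_at) differed by 0.00 ± 0.11. For E2f5, 1460207_s_at rose by 0.33 ± 0.09 (adjusted p = 0.0197), a size like that of the brighter probe set. The dimmer 1447625_at rose by 2.30 ± 0.70 (adjusted p = 0.03), with values of 6.58 to 9.69 in GC and 5.20 to 7.86 in naive cells that overlapped. The second E2f8 probe set (1444319_at), with a mean of log2 3.71, differed by 0.47 ± 0.59 (adjusted p = 0.569). E2f4 and E2f7 have 1 probe set each. Which part of each transcript these probe sets cover was not analysed here.

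**Figure D3:**
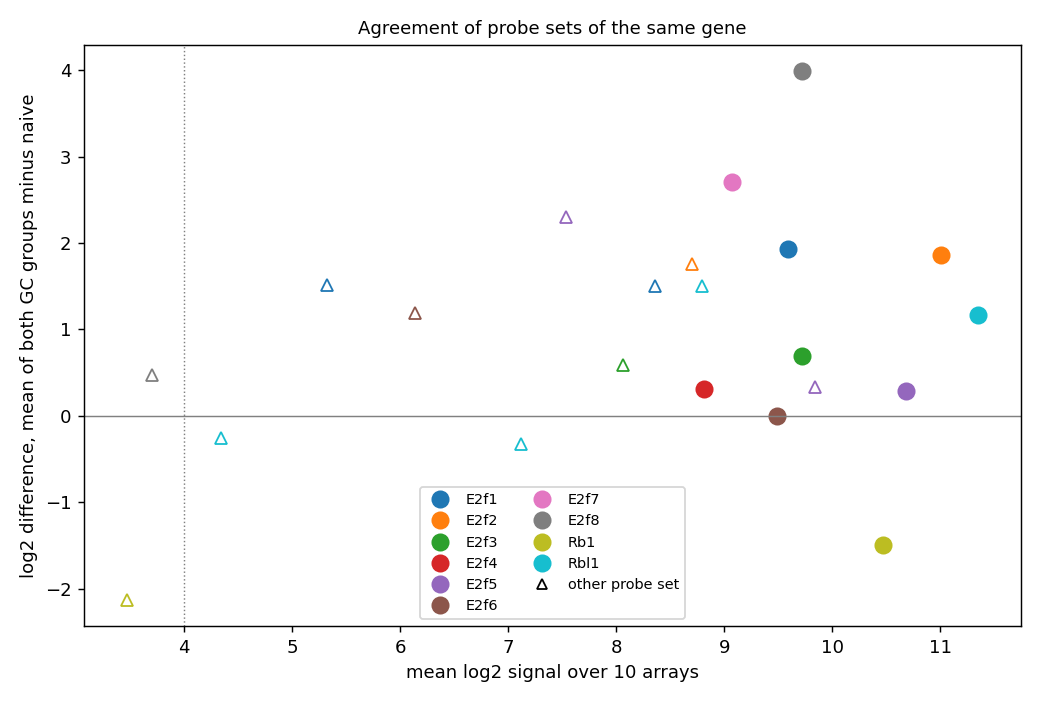
Log2 difference of the GC average minus naive for each of the 22 single-symbol probe sets of the 10 genes, set against its mean log2 signal over the 10 arrays, with a dotted line at log2 4. Filled circles are the brightest probe set of each gene and open triangles the others, in the colour of the gene, and E2f6 (0.00 and 1.19) and Rbl1 (1.17, 1.50, −0.33 and −0.25) have probe sets that part.

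The genes whose profile over the 10 arrays was most like that of the 3 genes with the largest changes were found by the root mean square difference of profiles centred on their own mean. For E2f8 they were Ada, which encodes adenosine deaminase (0.12), the transcription elongation factor gene Eaf2 (0.18) and the sphingosine 1-phosphate receptor gene S1pr2 (0.20). E2f7 was closest to the mitotic kinesin gene Kif23 (0.14), the DNA ligase gene Lig1 (0.17) and Arhgap11a (0.17). E2f1 was closest to the maintenance methyltransferase gene Dnmt1 (0.14), Lancl2 (0.14) and Hmgcs1, an enzyme of sterol synthesis (0.15). All are log2 units over 10 arrays, dominated by the difference between GC and naive arrays.

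The partners and target genes of the family were counted for the average of the GC groups against naive. In that comparison 20.5% of all tested genes were called higher and 21.0% lower. Where the counts of a list lie near these shares, they are no result about the list. Of 3 pocket protein and DP partner genes, Tfdp1, whose product pairs with E2F1 to E2F6 on DNA, rose by 1.61 ± 0.10 (limma adjusted p = 5.66e-06), Rbl2 fell as given above, and Tfdp2 differed by 0.14 ± 0.13 (adjusted p = 0.426). Averaged over its probe sets, Tfdp2 was lower (−0.66, adjusted p = 0.0118). The MuvB core with B-Myb and FoxM1, which turns from repressor to activator of mitotic genes, had 5 of 7 genes higher and 0 lower. Taken alone, GC B1-8 had 3 of the 7 higher than naive and GC V23 had 5. Mybl2, the gene of B-Myb, rose by 2.82 ± 0.17 and Foxm1 by 1.11 ± 0.12, while Rbbp4 rose by 0.50 ± 0.08 and Lin9 by 0.53 ± 0.14. Lin9 lost its call when its probe sets were averaged (0.39, adjusted p = 0.217) and without naive replicates 2 and 4 (0.55, adjusted p = 0.0782). It also did not pass in GC B1-8 alone (0.34, adjusted p = 0.155).

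Of 9 genes for the cyclins and kinases that phosphorylate pocket proteins, 6 rose and 1 fell, beside 20.5% and 21.0% of all tested genes. Ccnd2, the cyclin D2 gene, fell by 3.06 ± 0.07 on the log2 scale (limma adjusted p = 3.62e-07). Ccnd3, the cyclin D3 gene, rose by 1.49 ± 0.11, although the average of its probe sets differed by −0.35 and did not pass (adjusted p = 0.141). Ccne1 and Ccne2, the cyclin E genes, rose by 1.10 ± 0.16 and 3.12 ± 0.28, and Ccna2, the cyclin A2 gene, by 3.04 ± 0.21. Cdk4 rose by 0.97 ± 0.08 and Cdk6 differed by −0.15 ± 0.10 (adjusted p = 0.262). The probe sets of Cdk4, Ccne1 and Rbbp4 end in _x_at and may share sequence with other genes.
Of 7 CDK inhibitor genes, 3 rose and 1 fell, beside 20.5% and 21.0% of all tested genes. Cdkn1b, the gene of p27, was 9.16 ± 0.14 in GC B1-8 and 8.49 ± 0.13 in GC V23, against 11.76 ± 0.14 in naive cells, and fell by 2.93 ± 0.10 (adjusted p = 6.18e-07). Cdkn2c and Cdkn2d, which encode inhibitors of CDK4 and CDK6, rose by 2.30 ± 0.19 and 1.11 ± 0.11. Cdkn2b rose by 1.77 ± 0.60 (adjusted p = 0.0419), with 1 array below log2 4. It passed in neither GC group alone (adjusted p = 0.134 in GC B1-8 and 0.0533 in GC V23). It lost the call when any of GC B1-8 replicates 2 and 3, the GC V23 arrays or naive replicates 1, 3 and 4 was left out, at a highest adjusted p of 0.116.

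Most known targets rose together, beside 20.5% of all tested genes called higher. Of 27 G1/S target genes of E2F, 26 rose, 24 of them at least 2-fold, and 0 fell, with a median log2 fold change of 1.88 beside 0.06 for all genes. Rrm1, the large subunit of ribonucleotide reductase, rose by 1.94 ± 0.10, Fbxo5, an inhibitor of the anaphase-promoting complex, by 2.01 ± 0.12, and Mcm3, a subunit of the replicative helicase, by 1.81 ± 0.12. Pola1, the catalytic subunit of DNA polymerase alpha, rose by 2.22 ± 0.15, but averaged over its probe sets it differed by 0.64 and did not pass (limma adjusted p = 0.0818). Cdt1, the licensing factor, was the 1 that did not pass, at 0.19 ± 0.10 (adjusted p = 0.167), and is named because it was the exception. Of 17 G2/M target genes of MuvB complexes, 17 rose, each at least 2-fold, with a median of 3.06. Among them were Aurka (2.61 ± 0.16), Tpx2 (3.48 ± 0.22), Cdk1 (3.25 ± 0.21) and Kif23 (2.65 ± 0.17), all needed for mitosis. Ccne1, Ccne2 and Ccna2 belong to the G1/S list as well as to that of the cyclins and kinases.

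**Figure D4:**
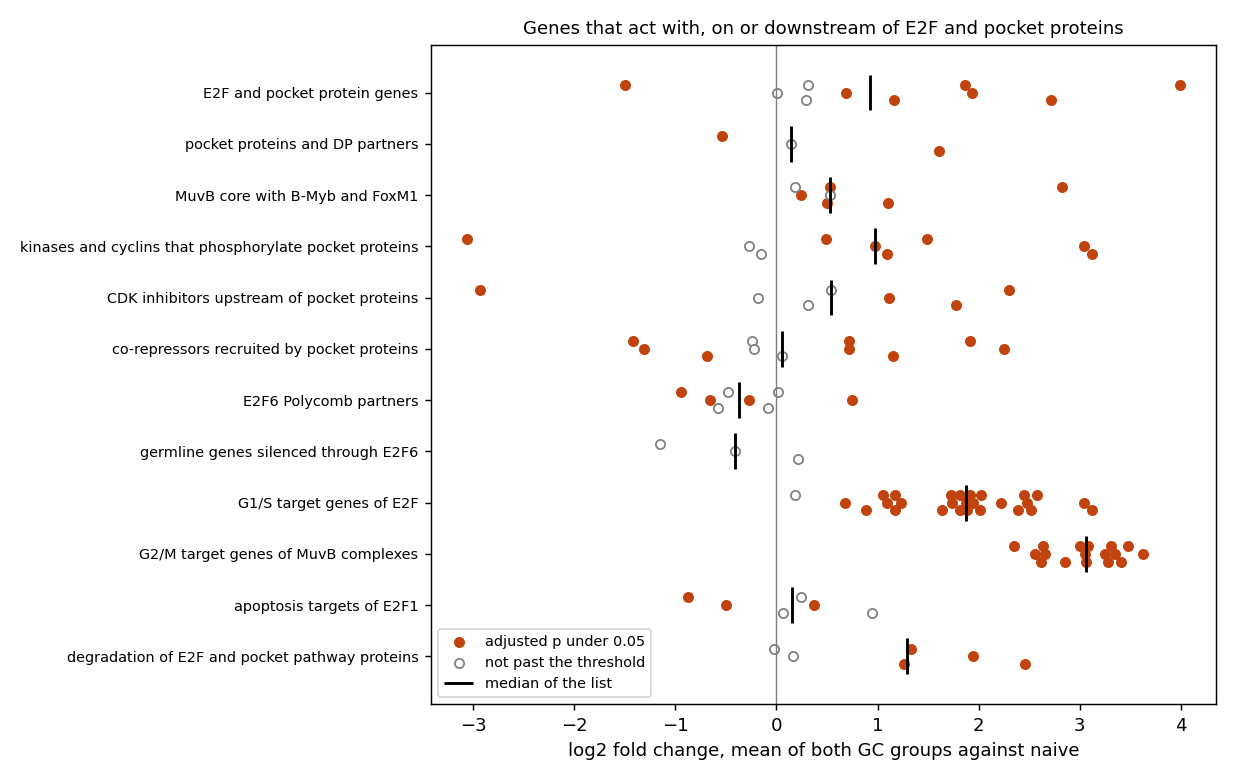
Log2 fold change of the GC average against naive for the 10 family genes and for the tested genes of each list of partners and targets, 1 point per gene, filled at an adjusted p under 0.05, with the list's median as a bar. All 17 G2/M target genes and 26 of 27 G1/S target genes rose, while the lists of co-repressors and Polycomb partners hold genes on both sides of 0.

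The remaining lists differed from each other, and their counts stand beside 20.5% of all tested genes called higher and 21.0% called lower. In lists this small, counts near those shares are no result about the list. Of 6 apoptosis targets of E2F1, 1 rose and 2 fell: Apaf1, which forms the apoptosome, rose by 0.37 ± 0.09, and the BH3-only genes Pmaip1 and Bcl2l11 fell by 0.88 ± 0.14 and 0.50 ± 0.11 on the log2 scale. Bbc3, a further BH3-only gene, differed by 0.25 ± 0.12 (limma adjusted p = 0.132) and passed with quantile normalization (0.53, adjusted p = 0.00356). Bcl2l11 did not pass when its probe sets were averaged (−0.20, adjusted p = 0.234), nor Apaf1 without naive replicates 2 and 4 (0.39, adjusted p = 0.0554). Of 11 co-repressor genes recruited by pocket proteins, 5 rose and 3 fell. Dnmt1 rose by 1.91 ± 0.11 and Suv39h2, a histone methyltransferase gene, by 2.25 ± 0.13, Smarca4, the gene of the remodeller BRG1, rose by 1.16 ± 0.09, and Kmt5b, a methyltransferase gene for histone H4, fell by 1.31 ± 0.09.
Of 8 Polycomb partner genes of E2F6, 1 rose and 3 fell, which is near the shares of all tested genes, 20.5% and 21.0%. Yaf2 rose by 0.75 ± 0.08, Mga fell by 0.95 ± 0.10 but differed by only −0.06 when its probe sets were averaged (adjusted p = 0.828), and Ring1 fell by 0.27 ± 0.09 (adjusted p = 0.0424), a call that most alternatives did not keep. Rnf2, the gene of the ubiquitin ligase RING1B, fell by 0.65 ± 0.06. The average of its probe sets differed by 0.61 and did not pass (adjusted p = 0.0643). Of the germline genes silenced through E2F6, 3 were bright enough to test and 0 passed by limma. Of these, 1 had an unadjusted p under 0.05, beside 8330 of all 17204 tested genes, which is no result about the list. Stag3 differed by −0.41 ± 0.17 (adjusted p = 0.0811), or −0.54 without naive replicate 4 (adjusted p = 0.0276), and Taf7l by 0.21 ± 0.21 (adjusted p = 0.461), and Ddx4 was below log2 4 on 7 of 10 arrays.
Of 6 genes that act in the degradation of the family's proteins and their regulators, 4 rose and 0 fell. Ccnf, which encodes cyclin F, rose by 2.46 ± 0.29, Fzr1, the gene of the activator CDH1, by 1.26 ± 0.08, and Skp2 and its cofactor Cks1b by 1.33 ± 0.16 and 1.94 ± 0.17.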

How the data were processed

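Splenic B cells of 3 groups were measured on 10 arrays. The authors deposited log2 probe set signals, and per the submitters' processing notes they used GCRMA. The values do not have that form: on every array the mean of the unlogged signals, trimmed by 2% at each end, was 500, as MAS5 scaling gives. They were used as deposited. Of 45101 probe sets, 34958 carry 1 gene symbol, 932 several and 9211 none. For each symbol the brightest probe set of that symbol alone was kept, and the 17204 genes above log2 4 on at least 3 arrays were tested. The tests were those of limma 3.58.1 in R 4.3.3, in 1 model of the 3 group means with empirical Bayes moderation, two-sided, with Benjamini-Hochberg adjustment over all tested genes and a threshold of 0.05. Fold changes carry ± SE and levels ± SD. Pairs of genes were compared by exact permutation tests of within-array differences. Dim values are imprecise: the median residual SD was 0.889 below log2 6 and 0.118 above log2 10. The model was also run on simulated data with independent noise for each gene and array, which is no test of the calls given here.

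The genes, lists and tests were chosen with earlier results of these data known. Named genes are the 10 family genes, up to 4 genes of each list with the smallest p, 11 partners whatever their result, and 3 nearest profiles for each of 3 family genes. Replicate numbers did not pair the samples: deviations of samples with the same number correlated between −0.02 and 0.07. Alternatives covered filters, probe set choice, quantile normalization, median centring, a floor, moderation, array weights, a 2-fold minimum, a replicate block and arrays left out. Sequences are from RefSeq (GRCm38.p6). Protein sequences were not used here, and gene coordinates were used only to place the promoter stretches.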

Additional observations from a re-analysis of the deposited data

Results flagged for a closer look

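In the naive group, E2f5 had 1 array far from the others: replicate 3 was at log2 10.61, against 10.46 to 10.49 in the other 3 naive arrays. That gap made up 0.851 of the range of the 4 arrays, above Dixon's critical value for groups of this size. Chance alone puts about 1 in 20 groups past that value, and the whole range of the naive arrays was small.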

How the results depend on the processing

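The counts of family genes, 6 higher and 1 lower against naive and 0 between the GC groups, were equal in 163 of 174 values, the replicate block included (6 and 1). Those values include the counts between the GC groups, where few of all genes were called in any setting. An equal count need not mean the same genes. With the mean of probe sets in GC B1-8 against naive, Rbl1 lost the call (limma adjusted p = 0.129) and E2f6 gained it. The number of genes higher was 7 in 8 values and 5 in 3, and no count of genes lower changed. It was 7 with quantile normalization in all 3 comparisons with naive, with the mean of probe sets and without GC V23 replicate 3 in GC V23 and over both GC groups, and without GC V23 replicate 1 over both GC groups. It was 5 under the 2-fold minimum. For the 7 called genes, 449 of 455 alternative values kept the call and the direction, 6 lost the call and 0 reversed. The losses were E2f3 in 3 comparisons under the 2-fold minimum and Rbl1 with the mean of its probe sets, at 0.61 in GC B1-8, 0.43 in GC V23 and 0.52 in their mean. E2f8 ranged from 2.23 with the mean of probe sets to 4.59 without naive replicates 2 and 4 over both GC groups, from 1.74 to 4.53 in GC B1-8 and from 2.72 to 4.66 in GC V23. The mean of probe sets brought E2f5 past the threshold in GC V23 (1.12, adjusted p = 0.0119) and over both GC groups (0.97, adjusted p = 0.00958). Signs turned for small differences of the family and for some called partner genes. E2f6 in GC B1-8 against naive was 0.59 with the mean of probe sets (adjusted p = 0.0277), 0.056 with quantile normalization and −0.18 to 0.032 with arrays left out. It was also called with the mean of probe sets in GC V23 (0.60, adjusted p = 0.0221) and over both GC groups (0.60, adjusted p = 0.0095). Over both GC groups it was −0.021 with array weights, −0.025 with the replicate block and −0.040 to 0.069 with arrays left out. E2f1 in GC B1-8 against GC V23 ran from −0.071 to 0.23 with arrays left out. With the mean of probe sets, signs also turned for Rb1 between the GC groups (0.50) and, against naive, for Ccnd3 (−0.35), Cdk6 (0.076), Rnf2 (0.61) and Tfdp2 (−0.66). Among these, only the turned value of Tfdp2 passed (limma adjusted p = 0.0118). Taf7l was −0.055 without naive replicates 2 and 4. The cause was not tested. Median centring moved the median of all genes in GC V23 against naive to 0.19, beside 0.06 as deposited, and the calls to 3823 higher and 2535 lower, beside 3127 and 3386. Probe sets near background limit what can be said of the second probe sets of E2f8 and Rb1.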
